A study of Homo sapiens with 6 samples.

Results

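The Notch receptors, ligands and targets described here are 8 genes, NOTCH1, NOTCH2, NOTCH3, JAG1, JAG2, DLL1, HES1 and HEY1, chosen by gene symbol from the 60708 genes in the table of read counts. RNA of Caki-1 cells, an established human line of clear cell kidney carcinoma, was sequenced in 6 samples to compare cells with and without the tumor suppressor gene VHL. The 3 VC samples are WT cells infected with a lenti-CRISPR vector only. The 3 VHL-KO samples were infected with the same kind of virus encoding an sgRNA against VHL. Infected cells were selected with puromycin. The VHL-KO lines are described as clonal, but how the 3 VHL-KO samples relate to clones and guides was not given in the sources used here, so a difference between the groups cannot be told apart from a difference between clones. The samples are numbered replicates, with nothing that says they came from separate cultures, and the p-values below measure only the spread between these samples, which may be technical.

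Notch signaling passes between touching cells. A Jagged or Delta-like ligand on the surface of a cell binds a Notch receptor on its neighbor, the receptor is cut by ADAM proteases and then by γ-secretase, and the freed intracellular domain enters the nucleus, where it joins the DNA-binding protein RBPJ and a Mastermind coactivator to switch on genes such as those of the HES and HEY families. The pathway takes part in patterning the nephron during kidney development, and VHL is the substrate-binding subunit of a ubiquitin ligase complex through which HIFα subunits are degraded in oxygen.

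Sequencing depth was 31789923, 28463579 and 34881739 counts in VC replicates 1, 2 and 3, and 29139722, 22805385 and 22628246 counts in VHL-KO replicates 1, 2 and 3. Levels are given as counts per 1000000 (CPM) after scaling by edgeR's TMM factors, and differences as the log2 fold change of VHL-KO over VC. The alternatives counted below vary the scaling, the filter, the samples and the model of the edgeR test and include a DESeq2 Wald test. Where a gene has 0 counts, up to 3 are allowed, which is 0.0790 CPM in the deepest sample and 0.141 CPM in the shallowest, and such limits cover counting error only.

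VHL itself was counted 1454, 1124 and 1522 times in VC replicates and 929, 657 and 650 times in VHL-KO replicates. All 3 VHL-KO samples lay below all 3 VC samples after scaling. The labels give the genotype and not the level of VHL RNA, and a count of reads does not show whether a transcript carries the edit. The log2 fold change of VHL was -0.33 ± 0.11 (SE, edgeR quasi-likelihood test, Benjamini-Hochberg adjusted p = 0.0109). In the same edgeR test the call of VHL was lost without VC replicate 1 (-0.28, adjusted p = 0.0862), without VHL-KO replicate 2 (-0.30, adjusted p = 0.0621), with upper quartile factors (-0.22, adjusted p = 0.0905) and with offsets for GC content and length (-0.15, adjusted p = 0.116; -0.16, adjusted p = 0.0744 with a replicate block as well). Over 15 alternatives its log2 fold change ran from -0.53 to -0.15 and its adjusted p from 0.000292 to 0.116. Of the exonic bases of VHL, 23.5% overlap a gene on the opposite strand, and whether the counting used strand is not stated.

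The targets of HIF differed widely between the groups. Of 10 listed HIF targets, 9 were called higher in VHL-KO cells and 1 lower, with a median log2 fold change of 1.60, beside 28.5% called higher and 31.2% lower among all 17401 tested genes. NDRG1, a stress-responsive gene, had a log2 fold change of 6.03 and ADM, which encodes the vasodilator peptide adrenomedullin, of 3.55. CA9, a carbonic anhydrase of the cell surface, was counted 0, 0 and 2 times in VC and 288, 247 and 233 times in VHL-KO replicates, a ratio of 562 between the pooled normalized counts (95% exact Poisson interval 155 to 4650, counting error only). Both VC reads of CA9 are from replicate 3, and without it VC had 0. The target that was lower, named after its value was seen, was EGLN3, a prolyl hydroxylase, at -1.26.

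Markers of kidney epithelium ranged from absent to abundant. PAX8, the transcription factor that marks kidney tubule and its tumors, stood at 427 ± 38.8 CPM in VC and 613 ± 14.2 CPM in VHL-KO (mean ± SD of n = 3), and KRT8 was the most abundant of the 9 listed, while PAX2 had no count in any sample. Of the 8 kidney markers that could be tested, 4 were called higher and 2 lower, with 59.7% of all tested genes called in either direction. Named after their values were seen, the lower ones were LHX1 (-1.67) and EPCAM (-1.42), and EPCAM was low throughout, at 1.33 ± 0.299 CPM in VC and 0.491 ± 0.263 CPM in VHL-KO. CDH16, also named after its values were seen, went from 6.75 ± 0.988 to 72.2 ± 1.78 CPM. The 6 endothelial markers summed to 0.322, 0.202 and 0.237 CPM in VC and 0.711, 0.324 and 0.469 CPM in VHL-KO samples. PECAM1, the only endothelial marker tested, was at 0.0658 CPM in VC and 0.423 CPM in VHL-KO cells (log2 fold change 2.73). KDR, the most abundant of them in VC cells (0.118 CPM), was counted 4, 0 and 9 times in VC and TIE1 3, 1 and 0 times, both with 0 counts in every VHL-KO replicate, and TEK had no count. The 5 leukocyte markers summed to 1.70, 1.78 and 1.37 CPM in VC and 4.45, 5.33 and 3.89 CPM in VHL-KO samples, nearly all of it from CD14 (log2 fold change 1.47), with CD3E at 0. The 6 fibroblast markers summed to 43.3, 47.2 and 37.2 CPM in VC and 30.0, 27.1 and 25.5 CPM in VHL-KO samples, mainly from COL1A1 (log2 fold change -0.42) and PDGFRB (-1.94), with LUM at 0. These sums moved with the genotype, and their part in the Notch results was not tested. In RNA from bulk cells, fewer cells that express a gene and less of its RNA per cell cannot be told apart.

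Among the Notch genes, both abundant receptors and the ligand JAG1 were lower in VHL-KO cells, the ligand JAG2 was higher, and the targets moved apart, HES1 upward and HEY1 downward. Of the 8 genes, 6 had at least 10 reads in some sample and were tested. All 6 were called at an adjusted p under 0.05, where 59.7% of the 17401 tested genes were. Of the 6, 2 were higher, against 28.5% of all tested genes, and 4 were lower, against 31.2%. The 3 VC and 3 VHL-KO samples did not overlap for any of the 6, and they did not overlap for 64.7% of all tested genes. Since most tested genes were called, these shares describe the Notch genes and do not set them apart. Their median log2 fold change was -0.42 and that of all tested genes was -0.01. The split of all calls followed the scaling, with 4958 genes higher and 5436 lower under TMM factors, 3763 and 6740 under library size alone, and 5712 and 4668 under upper quartile scaling. The median of all genes moved to -0.20 under library size alone and to 0.10 under upper quartile scaling.

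**Figure D1:**
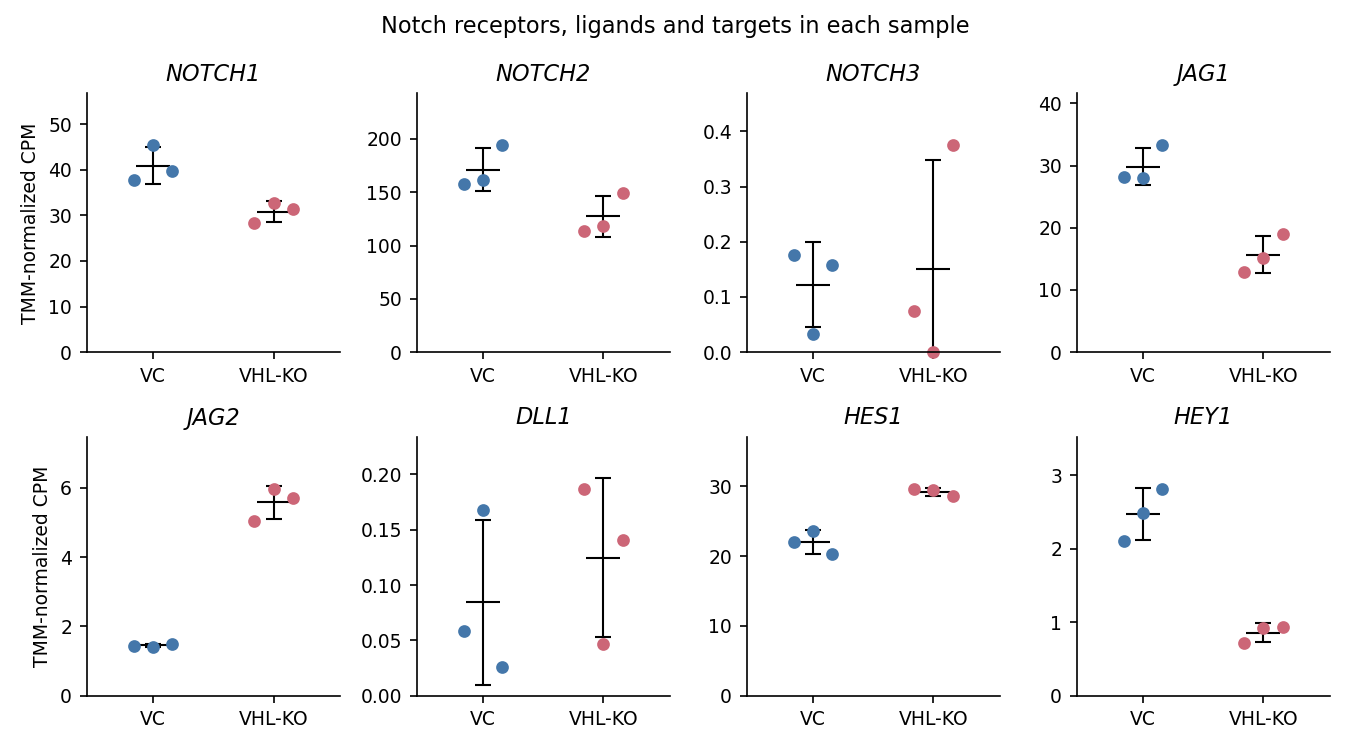
Level of each Notch gene in each sample, in TMM-normalized CPM (vertical axes start at 0 and differ between panels). Points are samples, horizontal bars are means and whiskers are SD (n = 3 per group); the groups are apart for the 6 tested genes and overlap for NOTCH3 and DLL1, which stayed at 8 counts or fewer.

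NOTCH1, a receptor, lies on chromosome 9 at 136494433 to 136546048 on the minus strand (ENSG00000148400.13, GENCODE 44 on GRCh38, as for all positions here). It was counted 1287, 1348 and 1504 times in VC replicates and 757, 705 and 670 times in VHL-KO replicates. All 3 VHL-KO samples were below the lowest VC sample after scaling. The level went from 40.9 ± 3.99 CPM in VC to 30.8 ± 2.23 CPM in VHL-KO cells, for a log2 fold change of -0.41 ± 0.11 (SE, edgeR quasi-likelihood test, Benjamini-Hochberg adjusted p = 0.00287).

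NOTCH1 is rich in GC (63.5% of its longest transcript), and fold changes in this comparison followed GC content. The median log2 fold change was -0.44 for the 2742 genes with under 40% GC and 0.61 for the 650 genes with 65% or more. Among the 1797 genes between 60% and 65%, where NOTCH1 lies, the median was 0.47, with 51.0% of genes called higher and 14.3% called lower. With offsets for GC content and length in each library, the log2 fold change of NOTCH1 was -0.84. The part of GC content in the results was not tested further, and such offsets would take away GC-linked changes of biological origin as well.

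NOTCH2, the receptor with the highest level per length in these cells, lies on chromosome 1 at 119911553 to 120100779 on the minus strand (ENSG00000134250.20). It was counted 5389, 4813 and 7374 times in VC replicates and 3050, 2557 and 3190 times in VHL-KO replicates. VC replicate 3 was the highest of its group and VHL-KO replicate 3 of the other, and the groups did not overlap. The level went from 171 ± 19.9 to 127 ± 19.3 CPM, for a log2 fold change of -0.43 ± 0.11 (SE, edgeR quasi-likelihood test, Benjamini-Hochberg adjusted p = 0.00134).

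NOTCH2 has partial copies, the NOTCH2NL genes, which share nearly identical sequence with its first exons, so reads that fit both would have been dropped as mapping to several places. NOTCH2NLA was counted 8, 0 and 4 times in VC and 12, 6 and 12 times in VHL-KO replicates, NOTCH2NLC 6, 2 and 16 in VC and 18, 0 and 9 in VHL-KO replicates, NOTCH2NLR at most 6 in any sample and NOTCH2NLB 0 in all. The log2 fold change of NOTCH2NLA was 1.85 (edgeR quasi-likelihood adjusted p = 0.0496), a call lost in 6 of 14 alternatives, among them each fit without VC replicate 2 or 3 or VHL-KO replicate 1 or 3 (adjusted p up to 0.155), and without VC replicate 1 its value was 2.82. NOTCH2NLC was not called (0.71, edgeR adjusted p = 0.465), and its value ran from -0.11 when VHL-KO replicate 1 was left out to 1.58 when VC replicate 3 was. These copies are uncertain. Summing all 4 with NOTCH2, an alternative chosen after seeing the data, gave -0.42 for NOTCH2. With so few reads on the copies, this sum could hardly differ from NOTCH2 alone. Nor does it bring back reads dropped as mapping to several places, so it does not test their part.

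NOTCH3, the receptor best known from vascular smooth muscle, was near the limit of detection. It was counted 6, 1 and 6 times in VC replicates and 2, 0 and 8 times in VHL-KO replicates, too few to be tested. The lowest and the highest sample were both VHL-KO samples. The ratio of pooled normalized counts, VHL-KO over VC, was 1.13 (95% exact Poisson interval 0.442 to 2.78, counting error only), so no difference was detectable at this depth. NOTCH4, a receptor typical of endothelium, had between 3 and 12 counts in every sample and was not called (log2 fold change -0.39, edgeR quasi-likelihood adjusted p = 0.670).

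The shares of the main receptors covered similar ranges in both groups. Per length, NOTCH1 made up 24.2%, 27.2% and 21.4% of NOTCH1 and NOTCH2 together in the VC samples and 24.9%, 26.9% and 21.9% in the VHL-KO samples. The ranges of the groups overlap. With GC and length offsets the log2 fold change was -0.84 for NOTCH1 and -0.37 for NOTCH2, and the difference between these genes was not tested. The long noncoding RNA NALT1 starts next to NOTCH1 on the opposite strand, at 136546212 to 136549893, with no shared exonic base. NALT1, named after its values were seen, was counted 13, 7 and 7 times in VC and 34, 22 and 17 times in VHL-KO replicates (log2 fold change 1.94, edgeR quasi-likelihood adjusted p = 0.00129), opposite in direction to NOTCH1. With GC and length offsets and a replicate block its value was 1.16 (edgeR adjusted p = 0.0558, within 0.000338 to 0.0558 over 14 alternatives).

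The Jagged ligands moved in opposite directions. JAG1 lies on chromosome 20 at 10637684 to 10673999 on the minus strand (ENSG00000101384.12) and is the Jagged ligand whose loss causes Alagille syndrome. It was counted 963, 835 and 1264 times in VC replicates and 346, 328 and 404 times in VHL-KO replicates. Every VHL-KO sample was well under every VC sample. The level went from 29.9 ± 2.97 to 15.7 ± 3.03 CPM, for a log2 fold change of -0.93 ± 0.14 (SE, edgeR quasi-likelihood test, Benjamini-Hochberg adjusted p = 2.51e-06).

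JAG2, the other Jagged ligand, lies on chromosome 14 at 105140982 to 105168824 on the minus strand (ENSG00000184916.9). It was counted 49, 42 and 57 times in VC replicates and 135, 129 and 122 times in VHL-KO replicates. The VC samples were tightly grouped at a low level, and all 3 VHL-KO samples were far above them. The level went from 1.45 ± 0.0458 to 5.58 ± 0.477 CPM, for a log2 fold change of 1.94 ± 0.21 (SE, edgeR quasi-likelihood test, Benjamini-Hochberg adjusted p = 2.31e-08). JAG2 has a GC content of 64.1%, and its log2 fold change was 1.50 with GC and length offsets. Of its exonic bases, 7.33% overlap another gene on the same strand.

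Per length, JAG2 made up 6.89%, 6.81% and 6.15% of JAG1 and JAG2 together in the VC samples. In the VHL-KO samples its share was 36.2%, 36.4% and 30.5%. JAG1 thus remained the more abundant of the Jagged ligands in all 6 samples, with a much larger share for JAG2 in each VHL-KO sample than in any VC sample.

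The promoter of JAG1 is shown because JAG1 fell while most listed HIF targets rose, and because it holds several copies of the letters at the core of the hypoxia response element. The 250 bases before the start of each gene were taken from RefSeq (GRCh38.p14), where 6 of the 8 Notch genes matched, all but DLL1 and HEY1. The letters searched were ACGTG and GCGTG, on both strands. The motifs share CGTG, and no match overlapped another in the sequences shown. At least 1 match is present in 43.2% of 35116 promoters of this length and 2 or more in 19.4%. JAG1 held 4, NOTCH1 2, HES1 2, JAG2 1, NOTCH3 1 and NOTCH2 0. Capitals mark the matches in JAG1 (chr20:10674000-10674249, minus strand, written 5′ to 3′ in the direction of the gene), where CACGC is GCGTG on the other strand. A match is a description, not a site or a cause.
JAG1: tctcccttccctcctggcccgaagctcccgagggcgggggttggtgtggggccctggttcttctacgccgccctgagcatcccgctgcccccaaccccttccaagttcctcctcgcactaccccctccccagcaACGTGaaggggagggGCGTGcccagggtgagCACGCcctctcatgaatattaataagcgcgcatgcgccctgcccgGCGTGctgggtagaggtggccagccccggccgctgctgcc

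The Delta-like ligands ranged from barely detected, for DLL4, to above JAG2 per length, for DLL3. DLL1, which acts in somite and neural patterning, was counted 2, 5 and 1 times in VC replicates and 5, 1 and 3 times in VHL-KO replicates and was not tested. Both groups covered the same range of counts. The ratio of pooled normalized counts was 1.65 (95% exact Poisson interval 0.564 to 4.90, counting error only), and 9.69% of the exonic bases of DLL1 overlap a gene on the opposite strand. DLL4, the endothelial ligand, had at most 2 counts in any sample. DLL3, an atypical ligand that does not activate receptors on neighboring cells, was counted 151, 161 and 162 times in VC and 211, 137 and 147 times in VHL-KO replicates. Per kilobase of exon, DLL3 stood at 1.80 CPM in VC (samples 1.63 to 2.07) and 2.69 CPM in VHL-KO cells (2.42 to 3.02). DLL3 was called higher after scaling (log2 fold change 0.59, edgeR quasi-likelihood adjusted p = 0.00638). That call was lost with library size alone (0.40, adjusted p = 0.0585) and with GC and length offsets (0.025, adjusted p = 0.893), within 0.00129 to 0.911 over 15 alternatives of the edgeR and DESeq2 tests.

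HES1, a transcriptional repressor and the best-known Notch target, lies on chromosome 3 at 194136148 to 194138732 on the plus strand (ENSG00000114315.4). It was counted 751, 704 and 770 times in VC replicates and 793, 636 and 610 times in VHL-KO replicates. The raw counts overlap, and the groups separate only after scaling. The VHL-KO samples then lie close together above all VC samples. The level went from 22.0 ± 1.71 to 29.2 ± 0.570 CPM, for a log2 fold change of 0.41 ± 0.12 (SE, edgeR quasi-likelihood test, Benjamini-Hochberg adjusted p = 0.00338). Scaled by library size alone, the log2 fold change of HES1 was 0.22 and the call was lost (edgeR adjusted p = 0.0967, within 0.000327 to 0.0967 over 15 alternatives). With GC and length offsets it was 0.27.

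The promoter of HES1 is shown with the RBPJ motif, TGGGAA, searched on both strands of the same 250 bases. Of the 35116 promoters, 20.8% hold at least 1 match and 2.90% hold 2 or more. HES1 held 2, at 84 to 79 and 70 to 65 bases before its start, and JAG1, JAG2, NOTCH1, NOTCH2 and NOTCH3 held none, which says only that these letters are not in this window. Capitals mark the matches in HES1 (chr3:194135898-194136147, plus strand), and none of them overlapped the HIF core letters. These matches too describe the letters only.
HES1: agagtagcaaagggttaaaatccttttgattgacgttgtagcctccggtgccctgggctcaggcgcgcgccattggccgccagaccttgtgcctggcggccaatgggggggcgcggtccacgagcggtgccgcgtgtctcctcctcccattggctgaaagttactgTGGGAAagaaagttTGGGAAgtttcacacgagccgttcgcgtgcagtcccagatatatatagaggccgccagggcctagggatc

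HEY1, a repressor of the HEY family and another Notch target, lies on chromosome 8 at 79762371 to 79767857 on the minus strand (ENSG00000164683.18). It was counted 72, 74 and 107 times in VC replicates and 19, 20 and 20 times in VHL-KO replicates. The raw counts of the VHL-KO samples were nearly equal, although replicate 1 was deeper, and all 3 samples were far below the lowest VC sample after scaling. The level went from 2.47 ± 0.355 to 0.858 ± 0.128 CPM, for a log2 fold change of -1.53 ± 0.28 (SE, edgeR quasi-likelihood test, Benjamini-Hochberg adjusted p = 5.22e-05). Per length, the level of HEY1 was 3.60%, 3.94% and 5.21% of that of HES1 in the VC samples and 0.899%, 1.18% and 1.23% in the VHL-KO samples, with no overlap.

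Per kilobase of exon, the Notch genes spanned a wide range of levels. In VC cells HES1 (10.7 ± 0.828 CPM per kb) and NOTCH2 (10.2 ± 1.19) were the highest, followed by NOTCH1 (3.26 ± 0.319) and JAG1 (3.21 ± 0.319), and the samples overlapped within each of these neighboring pairs. HEY1 (0.450 ± 0.0647 CPM per kb) and JAG2 (0.227 ± 0.00716) came next without overlap, and DLL1 (0.0221 ± 0.0195) and NOTCH3 (0.0130 ± 0.00823) were lowest and overlapped. In VHL-KO cells the order was HES1 (14.2 ± 0.277 CPM per kb), NOTCH2 (7.61 ± 1.15), NOTCH1 (2.46 ± 0.178), JAG1 (1.69 ± 0.326), JAG2 (0.873 ± 0.0746) and HEY1 (0.156 ± 0.0233), each separate from the next in all samples. DLL1 (0.0327 ± 0.0188 CPM per kb) and NOTCH3 (0.0159 ± 0.0211) were again lowest and overlapped. HEY1 and JAG2 had exchanged places between the groups. With the longest protein-coding transcript as the length, the level in VC cells was 15.0 CPM per kb for NOTCH2 and 14.0 for HES1, and 5.03 for JAG1 and 4.27 for NOTCH1, so the order inside both overlapping pairs turned.

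**Figure D2:**
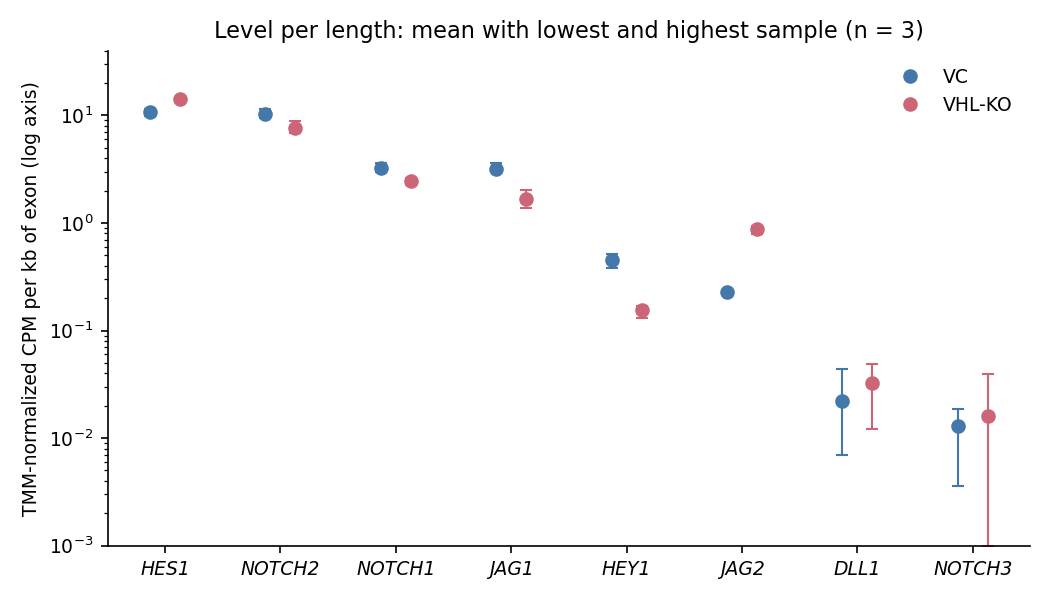
Level of each Notch gene per length, in TMM-normalized CPM per kb of exon on a log axis. Points are means and whiskers run from the lowest to the highest of 3 samples; the whisker of NOTCH3 in VHL-KO cells ends at the axis because its lowest sample had 0 counts. HEY1 is above JAG2 in VC cells and below it in VHL-KO cells.

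Of the 8 other targets, 4 had at most 3 counts in any sample. NRARP encodes a small ankyrin-repeat protein that is induced by Notch and feeds back on the nuclear complex. It was counted 66, 73 and 77 times in VC replicates and 6, 10 and 7 times in VHL-KO replicates. All VHL-KO samples were far below all VC samples. The level of NRARP went from 2.14 ± 0.279 to 0.339 ± 0.120 CPM, for a log2 fold change of -2.67 ± 0.36 (SE, edgeR quasi-likelihood test, Benjamini-Hochberg adjusted p = 7.62e-07). HES2, a repressor of the HES family, was counted 0, 1 and 8 times in VC and 9, 17 and 8 times in VHL-KO replicates. HES2 was called higher (log2 fold change 2.47, edgeR quasi-likelihood adjusted p = 0.0147) but not without VC replicate 1 (1.92, edgeR adjusted p = 0.0648, within 0.00177 to 0.0648 over 13 alternatives), and its value was 4.63 without VC replicate 3.

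HES4 and HES6, also of the HES family, were not called. HES4 had log2 fold change -0.18 (edgeR quasi-likelihood adjusted p = 0.562) and a GC content of 73.9%, and with GC and length offsets its value was -1.11 (edgeR adjusted p = 0.000298, up to 0.992 over 15 alternatives). HES6 had log2 fold change 0.30 (adjusted p = 0.228) and a GC content of 68.4%, and with GC and length offsets the edgeR test called it lower (-0.43, adjusted p = 0.0451, up to 0.677 over 15 alternatives). Without VC replicate 2 the same test called HES6 higher (0.51, adjusted p = 0.0417). HES5 had no count in any sample, HES7 and HEY2 had at most 1 count and HEYL at most 3. Of the 4 other targets that were tested, 1 was higher, 1 was lower and 2 were not called. Of all tested genes, 59.7% were called in either direction.

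The rest of the pathway was split evenly. Of 68 other Notch pathway genes listed by role, 58 were tested, 19 were called higher, 19 lower and 20 not called, with a median log2 fold change of 0.05, beside 28.5% higher, 31.2% lower and a median of -0.01 among all tested genes. With library size alone 12 were higher and 23 lower, beside 3763 and 6740 of all tested genes. With upper quartile factors 22 were higher and 16 lower, beside 5712 and 4668 of all. GC and length offsets gave 19 higher and 22 lower, beside 4970 and 5492. The counts for each role are small and were not compared between roles.

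**Figure D3:**
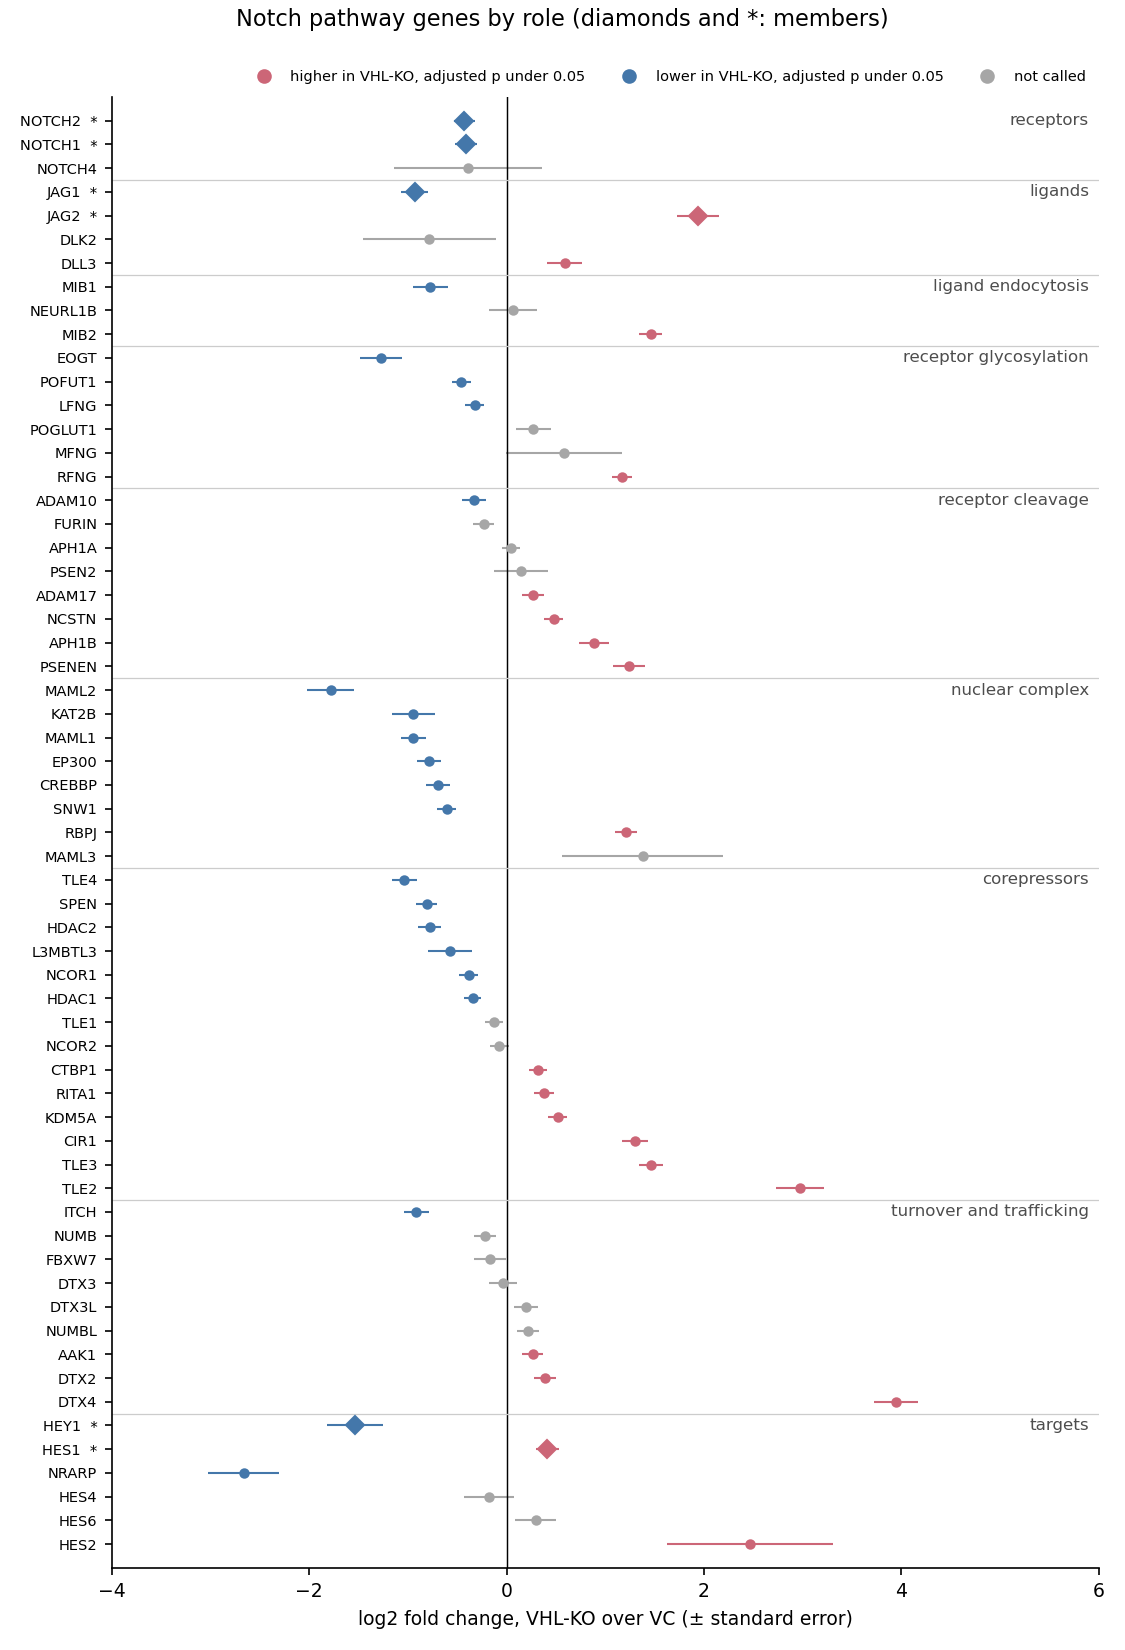
Log2 fold change of VHL-KO over VC (horizontal axis, whiskers are standard errors) for the tested Notch genes and other pathway genes, by role; the partial copies of NOTCH2 and 1 other gene are not drawn. Diamonds are the 6 tested Notch genes, and color gives the call at an adjusted p under 0.05; in the nuclear complex RBPJ is higher and 6 of 8 genes are lower.

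In the nuclear complex, RBPJ was higher and most of its coactivators were lower, MAML3 being the exception. RBPJ, which binds DNA and recruits either corepressors or the Notch coactivator complex, was counted 980, 699 and 1138 times in VC replicates and 1910, 1299 and 1251 times in VHL-KO replicates. Every VHL-KO sample was above every VC sample. The log2 fold change of RBPJ was 1.21 (edgeR quasi-likelihood adjusted p = 2.45e-09), at a GC content of 36.8%, and of all genes under 40% GC, 13.9% were called higher and 49.6% lower. Of the 8 genes, 6 were called lower and 1 higher, with a median of -0.74, beside 31.2% lower and 28.5% higher among all tested genes. MAML2, a Mastermind coactivator, was counted 122, 114 and 173 times in VC and 35, 25 and 21 times in VHL-KO replicates, with log2 fold change -1.78 (edgeR adjusted p = 7.17e-07). The related coactivator MAML1 was at -0.94, the acetyltransferases KAT2B, EP300 and CREBBP at -0.95, -0.79 and -0.70, and the cofactor SNW1 at -0.61. These 6 and RBPJ were called in all 15 alternatives, with KAT2B at -0.50 under GC and length offsets. MAML3, at 13 counts or fewer, was not called (1.38, edgeR adjusted p = 0.150). Its value ran from 0.998 without VC replicate 2 to 2.15 without VC replicate 1.

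Of the 14 corepressors, 6 were higher, 6 lower and 2 not called, where 59.7% of all tested genes were called. The Groucho-related TLE genes, which encode corepressors of HES proteins, were divided among all 3 outcomes. TLE2 was counted 21, 25 and 23 times in VC replicates and 153, 109 and 115 times in VHL-KO replicates, a log2 fold change of 2.98, with no overlap. TLE3 had a log2 fold change of 1.46 and TLE4 of -1.04, and TLE1 was not called (-0.13, edgeR quasi-likelihood adjusted p = 0.231), although it was called lower with library size alone (-0.32) and with GC and length offsets (-0.38). CIR1, which links RBPJ to histone deacetylases, was at 1.30 and SPEN, a large RBPJ-binding corepressor, at -0.81. HDAC2, a histone deacetylase, was at -0.78, and at -0.28 with GC and length offsets. The lower call of L3MBTL3 (-0.57), named after its values were seen, was lost in 7 of 15 alternatives. Its value was -0.145 with GC and length offsets and -0.344 without VHL-KO replicate 3. Among the smaller rises, those of RITA1 (0.38), which exports RBPJ from the nucleus, and CTBP1 (0.32), a corepressor, changed sign with GC and length offsets, to -0.113 and -0.019, and were no longer called with library size alone (0.19 and 0.13).

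Among the enzymes that act on the receptor, the glycosyltransferases had 1 gene higher and 3 lower of 6, where 59.7% of all tested genes were called in either direction. RFNG, a Fringe enzyme that extends O-fucose on Notch, was at 1.17, with 21.6% of its exonic bases overlapping a gene on the opposite strand. EOGT, which adds O-GlcNAc, was at -1.28, POFUT1, which adds the O-fucose itself, at -0.46, and the Fringe enzyme LFNG at -0.33. RFNG was at 0.71, EOGT at -0.80 and LFNG at -0.76 with GC and length offsets, and POGLUT1, a glucosyltransferase named after its values were seen, was called higher with them (0.72) but not without (0.27). The call of LFNG was lost with upper quartile factors (-0.21, edgeR quasi-likelihood adjusted p = 0.0692) and without VHL-KO replicate 2 (-0.27, adjusted p = 0.0538), within 1.63e-11 to 0.0692 over 15 alternatives of the edgeR and DESeq2 tests.

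The genes listed for receptor cleavage had 4 higher and 1 lower of 9, where 59.7% of all tested genes were called in either direction. PSENEN (1.24), APH1B (0.89) and NCSTN (0.48) encode subunits of γ-secretase and were higher in all 15 alternatives. APH1A, named after its values were seen, encodes another subunit and was not called (0.045, edgeR quasi-likelihood adjusted p = 0.676). The level of APH1A in VC was 154 CPM, where that of APH1B was 6.77 CPM. With GC and length offsets and a replicate block, the edgeR test called APH1A lower (-0.13, adjusted p = 0.0428). PSEN2 was not called (0.15, edgeR quasi-likelihood adjusted p = 0.660), and 38.7% of its exonic bases lie in another gene on the same strand. PSENEN shares 21.0% of its exonic bases with a gene on the same strand and 31.3% with genes on the opposite strand, so its counts are uncertain. Of the ADAM proteases, which cut the receptor before γ-secretase does, ADAM17 was at 0.27 and ADAM10 at -0.33, and both values depended on the settings. The call of ADAM17 was lost in 6 of 15 alternatives, including library size alone (0.075), no filter beyond 1 count (0.23) and each fit without VC replicate 1 or 2 or VHL-KO replicate 1 or 2 (log2 fold changes 0.25, 0.22, 0.20 and 0.28), while with GC and length offsets ADAM17 was called at 0.68. That of ADAM10 was lost with upper quartile factors (-0.22) and without VC replicate 3 (-0.16) or VHL-KO replicate 1 (-0.25). With GC and length offsets the edgeR test called ADAM10 higher (adjusted p = 0.0470), also with a replicate block (0.17, adjusted p = 0.0338).

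On the ligand side, the 4 listed ubiquitin ligases that drive endocytosis of bound ligand had 1 gene higher and 1 lower of 3 tested, where 59.7% of all tested genes were called, and NEURL1B was not called (0.062, edgeR quasi-likelihood adjusted p = 0.837). MIB2 was counted 796, 788 and 743 times in VC replicates and 1607, 1355 and 1439 times in VHL-KO replicates, a log2 fold change of 1.46. MIB1, the main ligase for Notch ligands, was counted 312, 262 and 518 times in VC and 173, 133 and 125 times in VHL-KO replicates, a log2 fold change of -0.77 that was no longer called with GC and length offsets (-0.30, edgeR quasi-likelihood adjusted p = 0.0609, within 2.13e-05 to 0.0684 over 15 alternatives). The groups did not overlap for MIB1 or MIB2. Their GC contents lie far apart, at 39.5% for MIB1 and 69.1% for MIB2, and MIB2 was at 0.94 with GC and length offsets.

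Among the genes of receptor turnover and trafficking, 3 were higher and 1 lower of 9 tested, where 59.7% of all tested genes were called in either direction. DTX4, a Deltex ubiquitin ligase, had the largest change of all pathway genes tested here, from 28, 14 and 32 reads in VC replicates to 276, 240 and 258 in VHL-KO replicates, for a log2 fold change of 3.95 ± 0.22 (SE, edgeR quasi-likelihood test, Benjamini-Hochberg adjusted p = 2.48e-13). The groups of DTX4 were far apart. ITCH, a ubiquitin ligase that acts on Notch receptors, was at -0.92, and at -0.44 with GC and length offsets. ITCH shares 24.0% of its exonic bases with genes on the same strand, so its counts too are uncertain. DTX2, a Deltex ligase, was at 0.39 and the kinase gene AAK1 at 0.26. DTX2 was no longer called with library size alone (0.20) or with GC and length offsets (0.026), and AAK1 not with library size alone (0.068), no filter (0.22), or without VHL-KO replicate 1 (0.19) or 2 (0.26), while GC and length offsets gave 0.62 for AAK1.

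**Figure D4:**
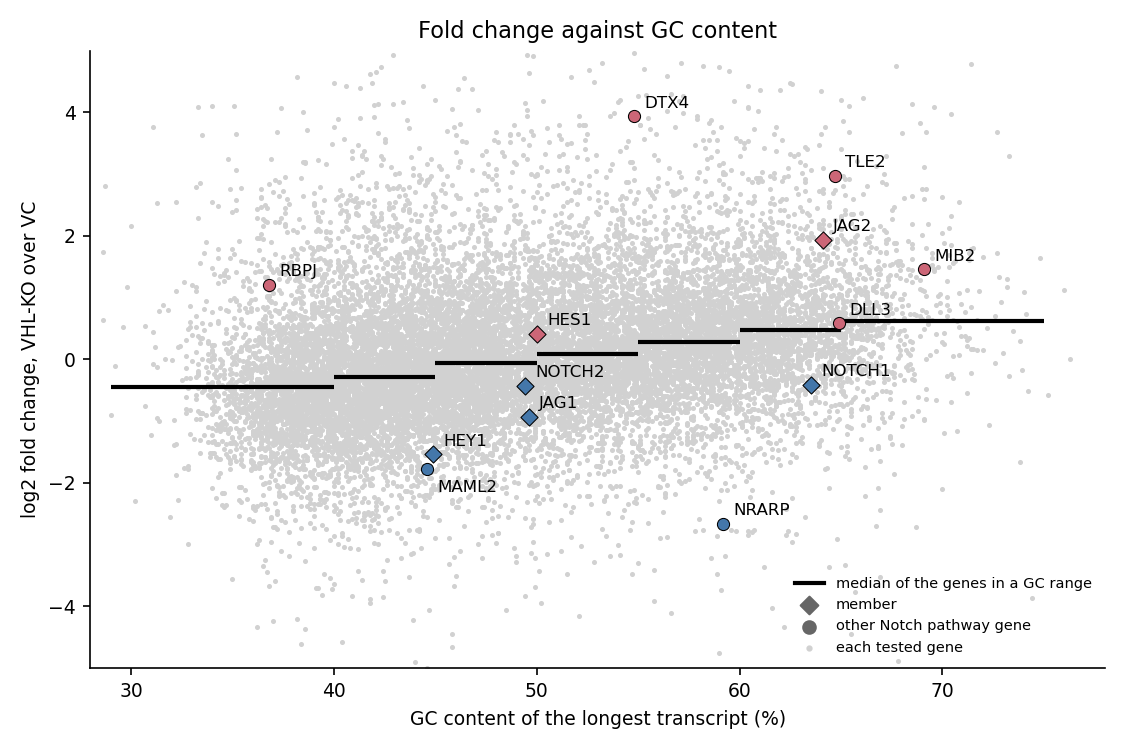
Log2 fold change of VHL-KO over VC (vertical axis) against the GC content of the longest transcript (horizontal axis, percent). Small dots are the tested genes with an annotation, 114 of 17355 of them outside the axes; black lines are medians of genes in a range of GC content; diamonds are Notch genes and circles other pathway genes, red where higher and blue where lower. NOTCH1 and NRARP lie below and JAG2 above the median of their range, and DLL3 lies near it.

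The genes whose pattern over the 6 samples was most like that of each tested Notch gene were found among the 10840 genes that averaged 100 or more normalized counts, by the root mean square difference of mean-centered log2 CPM. They were STAT5B for NOTCH1 (difference 0.0324), MCC for NOTCH2 (0.0419), IL31RA for JAG1 (0.0225), ANXA4 for JAG2 (0.0677), TAGLN2 for HES1 (0.0206) and NNT for HEY1 (0.0666). Patterns like that of HES1 were common, with 683 genes closer than 0.1 log2 units, and 246 for NOTCH1, 108 for NOTCH2 and 58 for JAG1. HEY1 had 9 such genes and JAG2 had 4. The likeness is a description over samples that share the contrast between the groups.

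**Figure D5:**
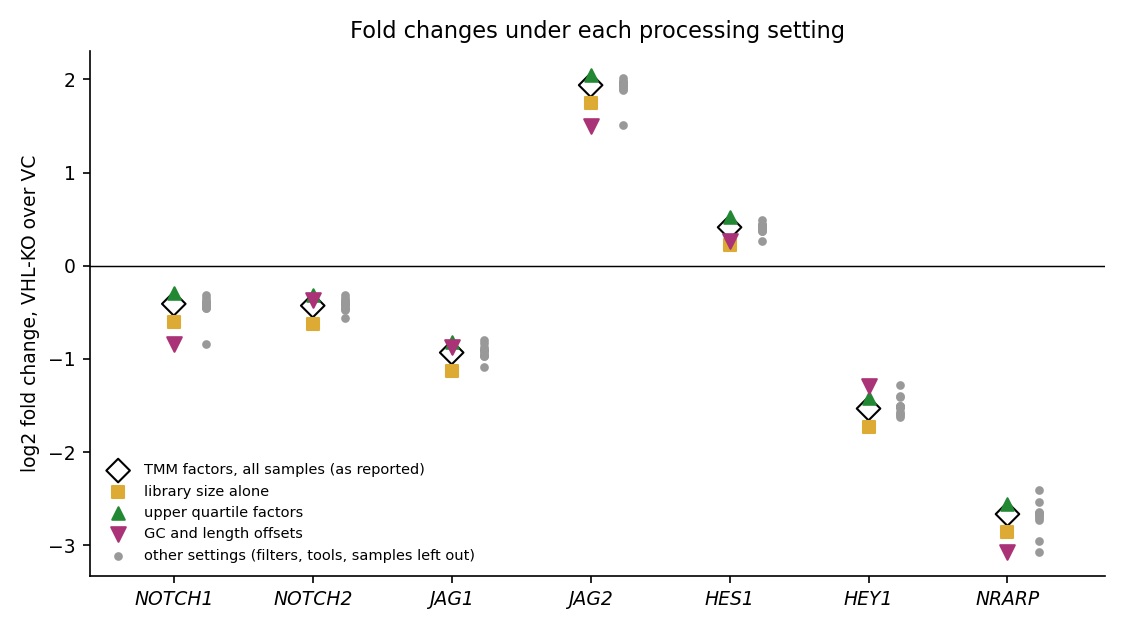
Log2 fold change of VHL-KO over VC (vertical axis) for the 6 tested Notch genes and NRARP under each processing setting. Open diamonds are the values reported, colored symbols are other scalings and GC and length offsets, and grey dots are the remaining settings; each gene keeps its direction throughout, with NOTCH1 between -0.84 and -0.30 and HES1 between 0.22 and 0.53.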

How the data were processed

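RNA-seq was run on 3 VC and 3 VHL-KO samples of Caki-1 cells, grouped by genotype in the labels. The authors deposited the raw count of reads per gene in each sample, not normalized or filtered. Per their methods and processing notes, reads were trimmed with Trim Galore and cutadapt and aligned with STAR to GRCh38.p13, reads with a single location were kept with SAMtools, and HTSeq counted them. Versions, annotation release, strandedness and counting mode were not given in the sources used here.

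The comparison of the groups used edgeR 4.0.16 in R 4.3.3 (TMM factors, quasi-likelihood fit and two-sided F test, Benjamini-Hochberg adjustment over all tested genes, threshold 0.05, no covariate) on the 17401 genes that reached 10 reads in some sample. The standard error is the absolute log2 fold change over the square root of F. The fit was tested on simulated data. No 2 replicates agreed within sampling noise (chi-square per degree of freedom 6.03 to 31.9), so none was counted as a copy. Positions, exon lengths and GC content came from GENCODE 44, and figures from matplotlib 3.10.9.

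The members and lists were chosen with earlier results of these data known. Genes are named by a rule: the Notch genes, VHL, a fixed set of paralogs and targets, the 3 largest called changes in each list and the likest gene of each member, with further genes named after their values were seen. Alternatives were DESeq2 1.42.0, other factors and filters, each replicate left out, a replicate block, offsets for GC content and length (natural splines, 5 degrees of freedom) and another gene length.

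From the lists of pathway genes, 1 gene is counted in the totals but is not reported here by itself.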

Additional observations from a re-analysis of the deposited data

How the results depend on the processing

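For the 6 tested Notch genes, 90 of 91 values under other settings kept both direction and call. The sum of NOTCH2 with its partial copies is among the 91, although it could hardly have differed. The exception was HES1 with library size alone (0.22, edgeR quasi-likelihood adjusted p = 0.0967), which left 1 Notch gene called higher. Library size alone also left 12 other pathway genes called higher. The median log2 fold change of the other pathway genes, near 0, moved to 0.17 with upper quartile factors, -0.14 with library size alone, -0.11 with no filter beyond 1 count, -0.10 with GC and length offsets, and between -0.022 and 0.080 with a replicate left out. The cause was not tested, beyond the shift of all genes with the scaling. With GC and length offsets, HES6 was -0.43, ADAM10 0.17, CTBP1 -0.019 and RITA1 -0.11, opposite to their values without offsets.

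Replicate numbers were not treated as pairing, since the labels give no pairing. The deviations of same-numbered samples correlated at 0.151, -0.092 and 0.059, and those of differently numbered samples at -0.181 to 0.068. With 3 samples per group these values do not decide whether the samples were paired. With a replicate block, 10284 genes were called in place of 10394, and every tested Notch gene kept its call. With GC and length offsets and a replicate block, the pathway median was -0.10, and HES6 was -0.43, ADAM10 0.17, APH1A -0.13, CTBP1 -0.019 and RITA1 -0.12.

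Depth limits NOTCH3, DLL1, NOTCH4 and the NOTCH2NL copies, for which only large differences would be detectable. Without the filter, NOTCH3 (0.20, adjusted p = 0.899) and DLL1 (0.57, adjusted p = 0.733) were not called by edgeR's quasi-likelihood test.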
